A study of Mus musculus with 8 samples.

Results

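The linker histone H1 genes were followed across 3 sorted populations of mouse hematopoietic stem and progenitor cells. Members were chosen by gene symbol: 7 genes, H1f0, H1f1, H1f2, H1f3, H1f4, H1f5 and H1f10, were listed, out of 22180 genes named on the array. A gene counted as measured when a probe set carried its symbol alone, and 5 of the 7 did: H1f1, H1f2, H1f3, H1f5 and H1f10. Each of the 5 had 1 such probe set, so the rule of taking the probe set with the highest mean over all arrays chose nothing here. H1f10 was also annotated on 1 probe set with several symbols, which was not used. H1f4 was annotated only on a probe set shared with 3 H2B genes and is not analysed here, and H1f0 was paired with no probe set in the annotation used here. All 5 measured genes passed the filter on dim genes described below.

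The mice were of the C57/Bl6 strain, with an age of 8 weeks in the labels, and cells were taken from bone marrow. Of the long-term hematopoietic stem cells (LT-HSC) there were 2 arrays, numbered 1 and 3, and the cells were sorted as CD48-CD150+CD34-, short-term stem cells (ST-HSC, 3 arrays) as CD48-CD150+CD34+, and multipotent progenitors (MPP, 3 arrays) as CD48+CD150-CD34+. All populations were lineage-negative, Sca1+ and Kit+. The labels conflict on what all 8 samples share: the descriptions give no treatment, whereas the protocol describes DMSO for 2 hours, a primary recipient for 1 year and a secondary recipient for 3 months. Nothing in the labels ties each array to an animal of its own, so the p-values reflect the spread between these samples, and that spread may be technical.

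Linker histones bind the nucleosome where DNA enters and leaves it and help to fold chromatin. In mammals the subtypes H1.1 to H1.5, encoded by H1f1 to H1f5, are made mainly in S phase from intronless genes in the histone cluster, and their mRNAs typically end in a stem-loop in place of a poly(A) tail. H1.0 and H1.10, encoded by H1f0 and H1f10, come from solitary genes whose polyadenylated mRNAs are made outside S phase too. How the amplification kit was primed is not given in the sources used here, so how well it took up mRNAs without a tail is unknown.

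The 4 measured cluster genes lie on mouse chromosome 13 (GRCm38.p6, RefSeq). H1f3 spans 23555032 to 23555807, H1f2 spans 23738807 to 23739531 and H1f1 spans 23763668 to 23764412, while H1f5 lies further off, from 21779832 to 21780625. H1f10 lies alone on chromosome 6, from 87980421 to 87981482. The promoters of the 4 cluster genes are shown because these genes sit in 1 cluster yet had different profiles over the arrays. Each is the 200 bases from 150 before to 50 after the RefSeq transcription start, on the gene's strand. Capitals mark 4 motifs, searched on both strands. The first is AAACACA, the core of the H1 box. The second, a common promoter element, is CCAAT. The third is a TATA-like run, TATANA, whose matches on the strands can overlap each other. The last is the GC box, written GGGCGG.
H1f1, chr13:23763518-23763717, plus strand: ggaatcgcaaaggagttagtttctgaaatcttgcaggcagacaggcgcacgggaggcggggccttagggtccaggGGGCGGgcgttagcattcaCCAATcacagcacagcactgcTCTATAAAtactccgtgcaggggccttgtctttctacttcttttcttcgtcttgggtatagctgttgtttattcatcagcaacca
H1f5, chr13:21780576-21780775, minus strand: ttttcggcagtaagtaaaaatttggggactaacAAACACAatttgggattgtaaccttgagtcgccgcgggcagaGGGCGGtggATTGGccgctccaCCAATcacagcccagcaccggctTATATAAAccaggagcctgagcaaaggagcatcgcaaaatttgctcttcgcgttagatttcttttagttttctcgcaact
H1f3, chr13:23554882-23555081, plus strand: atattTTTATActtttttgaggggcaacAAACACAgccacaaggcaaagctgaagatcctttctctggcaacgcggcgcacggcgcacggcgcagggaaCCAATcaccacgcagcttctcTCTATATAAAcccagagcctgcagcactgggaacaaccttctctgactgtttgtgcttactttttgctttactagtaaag
H1f2, chr13:23738657-23738856, plus strand: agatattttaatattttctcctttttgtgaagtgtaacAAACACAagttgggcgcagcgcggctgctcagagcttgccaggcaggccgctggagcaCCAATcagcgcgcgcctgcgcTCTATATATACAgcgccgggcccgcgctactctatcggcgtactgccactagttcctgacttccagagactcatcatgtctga
All 4 windows held CCAAT on the gene's strand, starting between 51 and 56 bases before the start site, followed by TATANA within 33 bases of the start. CCAAT was found on the gene's strand in 15.6% of all 32851 promoter windows of the same length (28.6% on either strand). TATANA was found on the gene's strand in 11.4% (15.8% on either). AAACACA, found on the gene's strand in 2.2% of windows (4.5% on either), stood on that strand 117, 122 and 112 bases before the start of H1f5, H1f3 and H1f2. It was not found in the H1f1 window. GGGCGG, found on the gene's strand in 20.6% of windows (32.2% on either), stood on that strand 75 bases before the start in both H1f1 and H1f5. Of the 4 motifs, the H1f10 window held GGGCGG alone, on the other strand, and 84.5% of its bases were G or C, where the median of all windows was 54.0%. These matches describe letters in the window and say nothing about which factors bind there.

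Values are log2 RMA signals, in which 1 unit is a 2-fold step, and levels are not compared between genes because each probe set has its own brightness. Differences are differences of log2 means with the standard error (SE) from a limma fit to all 8 arrays. Adjusted p-values are Benjamini-Hochberg values over 17576 tested genes, and calls were made below 0.05. Array medians lay between 4.95 and 5.22. Replicate 1 of LT-HSC and of ST-HSC was least like the rest, with median correlations of 0.956 and 0.968 to the other arrays, against 0.976 to 0.985 for the remaining 6. The gate marker CD150, encoded by Slamf1, read 7.77 and 7.78 in LT-HSC, 7.25 to 7.46 in ST-HSC and 4.77 to 5.46 in MPP. Cd48 overlapped between ST-HSC, at 6.51 to 7.49, and MPP, at 6.65 to 7.84, although their gates also differ in CD48. In LT-HSC it read 5.92 and 6.63. Cd34 overlapped between LT-HSC, at 8.50 and 10.20, and ST-HSC, at 9.55 to 10.15, although the gate separated these populations by CD34. The 14 granulocyte and monocyte markers averaged 0.68 to 1.23 above their mean over all arrays in the replicate 1 arrays. In the others they averaged 0.27 to 0.98 below it, so the larger split went with the replicate number. Outside replicate 1 they lay at -0.98 in LT-HSC, -0.40 and -0.74 in ST-HSC, and -0.37 and -0.27 in MPP. A further difference by population was not tested. Markers of stroma and endothelium and of erythroid cells were highest in ST-HSC replicate 1, at 1.26 and 0.98 above their means, and those of B cells and of T and NK cells stayed within 0.29 of theirs.

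ST-HSC carried more H1f1 and H1f5 signal than LT-HSC. These 2 of the 5 measured linker histone genes rose, and none fell. Of all tested genes 0.848% were called higher in ST-HSC and 0.0853% lower. By the labels, the gates of these populations differ in CD34 alone.

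H1f1 encodes H1.1, a subtype known for its narrow tissue range, with thymus and testis among its main sites. It read 5.71 and 5.91 in LT-HSC, 7.70, 8.03 and 8.10 in ST-HSC, and 6.95, 5.96 and 6.90 in MPP. No array of one population overlapped another, with ST-HSC on top and LT-HSC at the bottom, and MPP replicate 2 came closest to LT-HSC. The ST-HSC arrays averaged 7.94 ± 0.21 (SD, n = 3) and the LT-HSC arrays 5.81 ± 0.14 (SD, n = 2), a 4.38-fold rise (log2 difference 2.13, SE 0.28, limma adjusted p = 0.00617). By p-value it stood 34th among all tested genes in this comparison.

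H1f5 encodes H1.5, one of the more widely expressed somatic subtypes. It read 10.16 and 9.63 in LT-HSC, 11.62, 11.54 and 11.40 in ST-HSC, and 11.32, 10.46 and 10.79 in MPP. Again the populations did not overlap, in the same order. H1f5 averaged 11.52 ± 0.11 on the ST-HSC arrays (SD, n = 3) and 9.90 ± 0.38 on the LT-HSC arrays (SD, n = 2), a 3.08-fold rise (log2 difference 1.62, SE 0.26, limma adjusted p = 0.0133).

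Both calls needed LT-HSC replicate 1. Without it LT-HSC is 1 array, and the differences were 2.03 for H1f1 and 1.89 for H1f5 with limma adjusted p = 0.100 and 0.0686. The H1f5 call was also lost without ST-HSC replicate 3 (1.69, limma adjusted p = 0.0523).

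H1f10 and H1f3 were also higher on every ST-HSC array than on both LT-HSC arrays, but did not pass. H1f10, which encodes the divergent subtype H1.10, read 6.50 and 6.69 in LT-HSC, 7.21, 7.26 and 7.80 in ST-HSC, and 6.98, 7.01 and 7.03 in MPP. Its populations did not overlap, and the MPP arrays spanned only 0.047. The ST-HSC minus LT-HSC difference was 0.83 (SE 0.20, limma adjusted p = 0.121), with a 95% interval of 0.38 to 1.28. H1f3, which encodes H1.3, read 6.11 and 5.60 in LT-HSC, 6.50, 6.69 and 6.51 in ST-HSC, and 6.96, 5.56 and 6.10 in MPP. Its MPP arrays spanned the range of all 8 arrays, from the lowest to the highest. The ST-HSC minus LT-HSC difference was 0.71 (SE 0.33, limma adjusted p = 0.469), with a 95% interval of -0.029 to 1.44.

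H1f2 showed a different profile. It encodes H1.2, a subtype also known for its release from the nucleus after DNA damage. It read 9.36 and 9.33 in LT-HSC, 8.72, 9.19 and 9.41 in ST-HSC, and 8.91, 9.57 and 9.30 in MPP. All 3 populations overlapped, and the lowest arrays were ST-HSC replicate 1 and MPP replicate 1. In both populations these were also the arrays with the highest granulocyte markers. In LT-HSC, replicate 1 had the higher granulocyte markers too, and it read the higher of the 2 H1f2 values. Their part in the H1f2 values was not tested. The ST-HSC minus LT-HSC difference was -0.24 (SE 0.24, limma adjusted p = 0.744), and its 95% interval of -0.78 to 0.29 leaves out rises of the size seen for H1f1 and H1f5. Whether H1f2 differs in response from the other members was not itself tested.

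**Figure D1:**
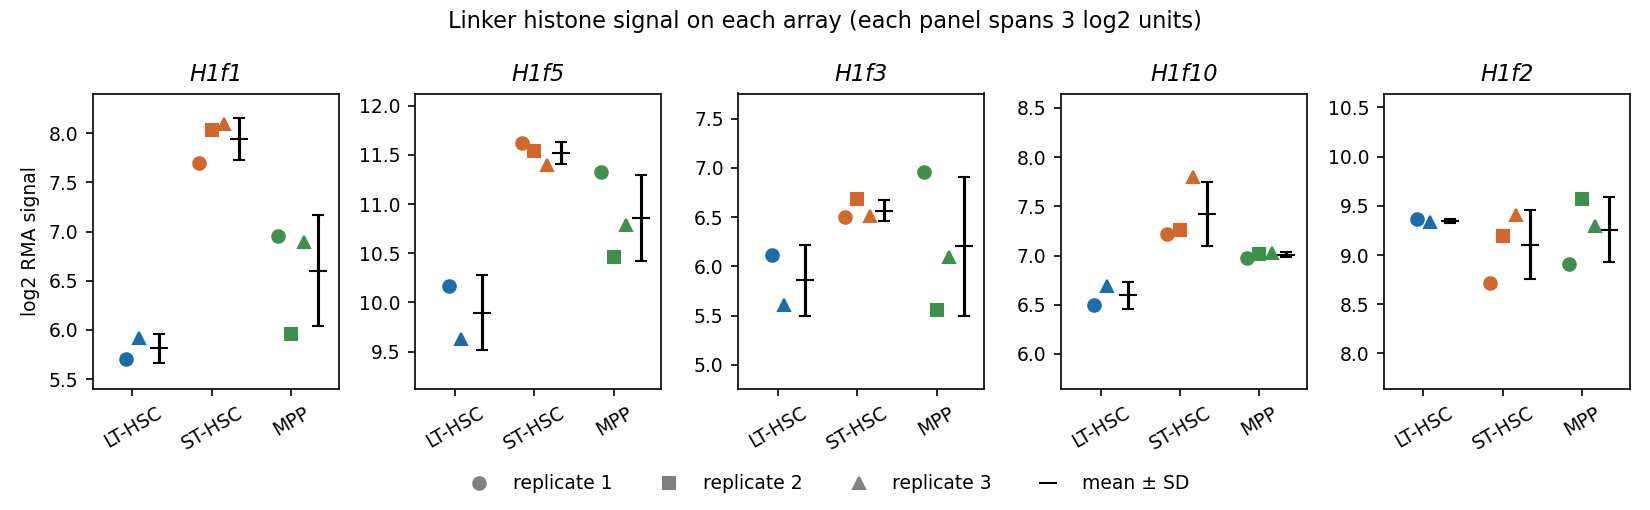
Log2 RMA signal (vertical axis) of the 5 measured linker histone genes by population, with 1 point per array and the population mean ± SD beside it. Every panel spans the same number of log2 units. H1f1, H1f5 and H1f10 lie highest on the 3 ST-HSC arrays and lowest on the 2 LT-HSC arrays, whereas the H1f2 populations overlap.

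In total 4 of the 5 members had non-overlapping arrays in ST-HSC against LT-HSC, all higher in ST-HSC, where 13.8% of all tested genes did so. The members' median difference was 0.83, and the median over all tested genes was 0.015. An F test over the 3 populations called H1f1 (limma adjusted p = 0.0123) and H1f5 (limma adjusted p = 0.0318), where 0.905% of tested genes were called. That count of 2 fell to 1 without LT-HSC replicate 3, ST-HSC replicate 1 or MPP replicate 3, and to 0 without LT-HSC replicate 1 or ST-HSC replicate 2 or 3.

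Between MPP and LT-HSC, H1f5 and H1f1 lay higher in MPP but did not pass. H1f5 averaged 10.86 ± 0.43 (SD, n = 3) in MPP and 9.90 ± 0.38 (SD, n = 2) in LT-HSC, a log2 difference of 0.96 (SE 0.26, limma adjusted p = 0.227). H1f1 averaged 6.60 ± 0.56 in MPP and 5.81 ± 0.14 in LT-HSC, a difference of 0.79 (SE 0.28, limma adjusted p = 0.379). H1f10 differed by 0.41, H1f3 by 0.34 and H1f2 by -0.091 (limma adjusted p = 0.503, 0.688 and 0.888). By limma 0 of 5 members were called, 2 had an unadjusted p under 0.05 (as did 10.6% of all tested genes), and 0.125% of all tested genes were called in either direction. The arrays of 3 members did not overlap, all higher in MPP, against 14.1% of all tested genes. The direction of H1f2 turned to 0.032 after centring each array on its median, a step that shifted the median over all genes by 0.12.

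MPP lay below ST-HSC for 4 of the 5 members, and none was called with all 8 arrays weighted equally and unpaired. H1f1 averaged 6.60 ± 0.56 in the MPP arrays and 7.94 ± 0.21 in the ST-HSC arrays (SD, n = 3 each), a log2 difference of -1.34 (SE 0.25, limma adjusted p = 0.0779). With the replicate number as a block over all 8 arrays, the same difference passed (limma adjusted p = 0.00856), and so it did with array weights (limma adjusted p = 0.00367). That block rests on a pairing by replicate number that was not established. H1f5 differed by -0.66 (SE 0.23, limma adjusted p = 0.453), with 10.86 ± 0.43 in MPP and 11.52 ± 0.11 in ST-HSC. H1f10 differed by -0.42, H1f3 by -0.36 and H1f2 by 0.15 (limma adjusted p = 0.697, 0.999 and 0.999). By limma 0 of 5 were called, 3 had an unadjusted p under 0.05 (as did 6.89% of all tested genes), and 0.193% of tested genes were called in either direction. The arrays of H1f1, H1f5 and H1f10 did not overlap, with MPP lower, against 6.43% of all tested genes. The 2 comparisons with LT-HSC share its arrays, and the 2 with ST-HSC share those, so their differences are not independent.

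**Figure D2:**
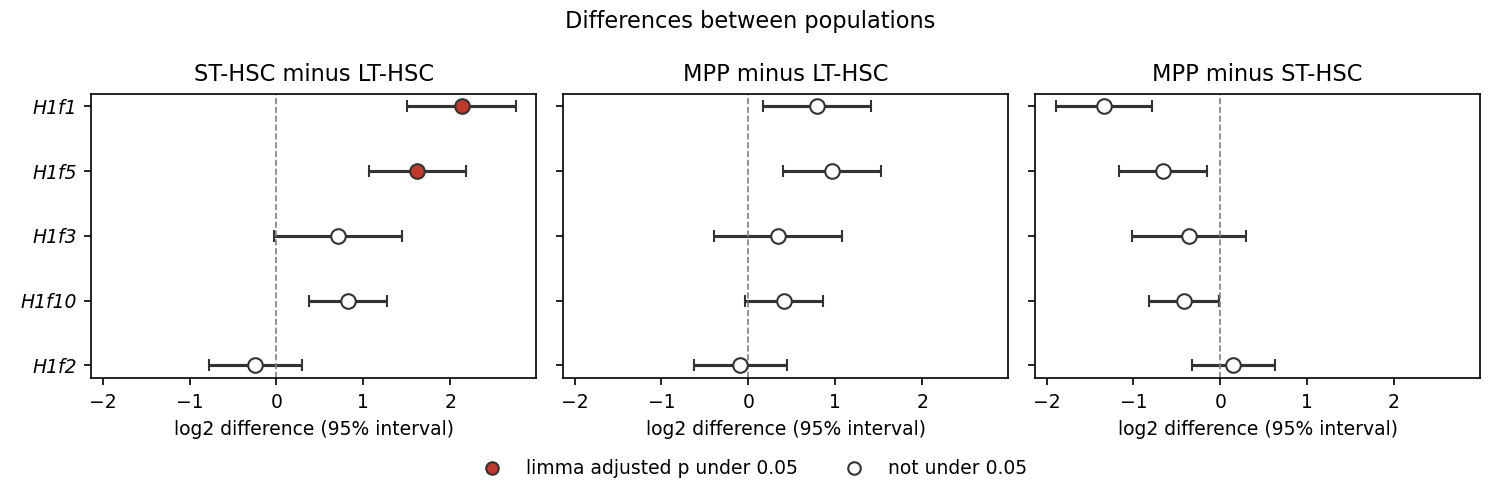
Log2 difference (horizontal axis) of each measured linker histone gene in the 3 comparisons, with 95% intervals from the limma fit. Filled points passed an adjusted p under 0.05: H1f1 at 2.13 and H1f5 at 1.62 in ST-HSC minus LT-HSC.

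The replication-dependent core histones, made like the cluster H1 genes mainly in S phase, package new DNA. Of their genes 21 had a probe set with a symbol of their own and 17 passed the filter on dim genes. Many of these genes are near copies of each other, and cross-hybridisation between copies was not tested. Against LT-HSC, 2 of the 17 were called higher in ST-HSC and none lower, where 0.848% and 0.0853% of all tested genes were. Of the 17 differences 13 were positive. On every ST-HSC array 12 of the genes lay higher than on both LT-HSC arrays, against 13.8% of all tested genes, and 1 lay lower. H2ac10, an H2A gene, read 10.09, 9.95 and 9.94 in ST-HSC and 8.90 and 8.89 in LT-HSC (log2 difference 1.10, limma adjusted p = 0.0238). H2bc18, an H2B gene, read 8.25, 7.49 and 7.93 in ST-HSC and 5.92 and 6.57 in LT-HSC (1.65, limma adjusted p = 0.0458). The H4 gene H4c12 (0.21, limma adjusted p = 0.694) and the H2A gene H2ac15 (1.10, limma adjusted p = 0.0593) did not pass. The list's median was 0.57. Without LT-HSC replicate 1 no gene of the list was called and the median was 0.34. No gene was called either with quantile normalization, with array weights, or without ST-HSC replicate 2 or 3 or MPP replicate 3 (median 0.38 without ST-HSC replicate 3). In MPP minus LT-HSC the median was 0.29 with 0 called (3 at an unadjusted p under 0.05), and in MPP minus ST-HSC it was -0.39 with 0 called (8 at an unadjusted p under 0.05). An unadjusted p under 0.05 was reached by 10.6% and 6.89% of all tested genes in these comparisons.

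The tested genes of the division cycle, like H1f1, H1f5, H1f3 and H1f10, lay higher in ST-HSC than in LT-HSC. The share of all tested genes called higher in ST-HSC than in LT-HSC was 0.848%. In ST-HSC 18 of 19 tested G2 and M phase genes rose relative to LT-HSC, with a median of 1.66. They included the kinetochore genes Ndc80 (2.01, limma adjusted p = 0.00426) and Nuf2 (2.12, limma adjusted p = 0.00574) and the checkpoint kinase gene Bub1 (2.09, limma adjusted p = 0.0043). Of 23 tested S phase genes 8 rose, with a median of 0.99, among them the replication factor genes Gins1 (1.29, limma adjusted p = 0.012) and Cdc45 (1.12, limma adjusted p = 0.0355). Pcna, the replication clamp, differed by 0.42 and Mcm6, part of the replicative helicase, by 0.75, and neither passed (limma adjusted p = 0.423 and 0.188). Both lists had medians below 0 in MPP minus ST-HSC, at -0.90 for G2 and M phase genes and -0.49 for S phase genes, with 0 called by limma (19 and 15 at an unadjusted p under 0.05). In MPP minus LT-HSC the medians were 0.78 and 0.50 with 0 called (16 and 15 at an unadjusted p under 0.05). The replicate block called 5 G2 and M phase genes and 1 S phase gene higher in MPP there. With replicate 1 as the only LT-HSC array these medians were 1.06 and 0.60, and with replicate 3 as the only one 0.58 and 0.40. An unadjusted p under 0.05 was reached by 6.89% of all tested genes in MPP minus ST-HSC and 10.6% in MPP minus LT-HSC. The counts of called genes depended on single arrays and on array weights. Without LT-HSC replicate 1, 1 G2 and M phase gene and 0 S phase genes were called in ST-HSC minus LT-HSC, with medians of 1.40 and 0.88. The S phase count also fell to 0 without ST-HSC replicate 3 and to 1 without ST-HSC replicate 1 or 2 or MPP replicate 3, and the G2 and M phase count fell to 9 without ST-HSC replicate 3. With array weights the counts were 10 for G2 and M phase genes and 0 for S phase genes, and median centring left 2 S phase genes called. All 19 and all 23 differences stayed positive in each of these fits. With the replicate block, 13 G2 and M phase genes, 3 S phase genes and 3 core histones were called lower in MPP than in ST-HSC, and with array weights 18, 2 and 4 were. The part of cycling cells in the linker histone values was not tested, and in bulk samples fewer cells with a transcript and less RNA per cell cannot be told apart.

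Within MPP, where no population difference enters, the arrays kept 1 order for several of these genes. Replicate 1 was highest and replicate 2 lowest for H1f1, H1f3 and H1f5. The same held for the means of the core histones (0.14 and -0.48 relative to all arrays), the S phase genes (0.25 and -0.42) and the G2 and M phase genes (0.23 and -0.48). This order was not particular to histone or division cycle genes: it held for 27.1% of all tested genes and for 14 of the 15 gene and marker lists. Those lists included the granulocyte and monocyte markers (0.68 and -0.37), the erythroid markers (0.42 and -0.81) and the stroma and endothelium markers (0.30 and -0.37). For H1f2 it was the other way round, with 9.57 in replicate 2 and 8.91 in replicate 1. With 3 arrays this is a description only.

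**Figure D3:**
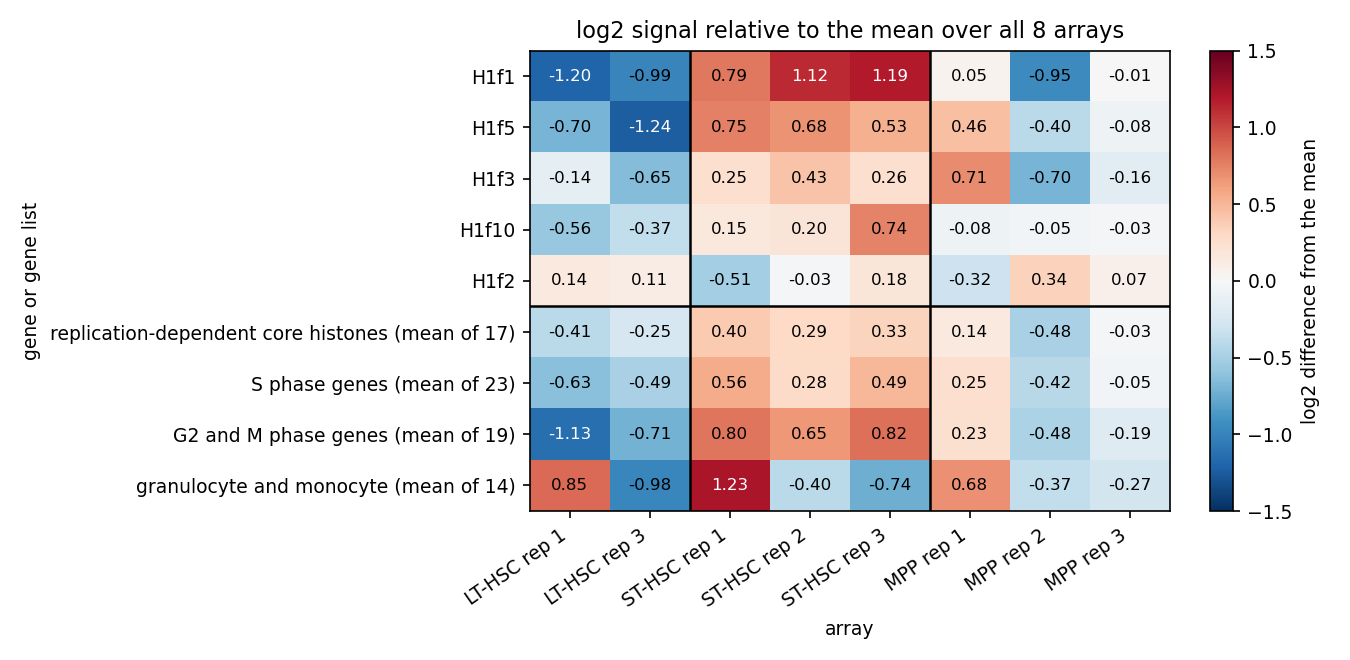
Log2 signal relative to each row's mean over all 8 arrays, for the 5 measured linker histone genes and the means of 4 gene lists, with 1 column per array and colour and printed numbers giving the same value. H1f1, H1f5, H1f3, H1f10, the core histones and both division cycle lists are above 0 on the ST-HSC arrays. All of these are below 0 on the LT-HSC arrays and MPP replicate 2, and H1f2 is not. Granulocyte and monocyte genes are above 0 on the replicate 1 arrays.

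Genes of histone gene transcription and processing, histone chaperones and enzymes that modify linker histones showed few calls. The first 2 of these lists cover histones in general, not linker histones alone. An unadjusted p under 0.05 was reached by 11.1% of all tested genes in ST-HSC minus LT-HSC, and 52.0% of all differences were positive. In ST-HSC 2 of 12 tested enzymes that modify linker histones rose relative to LT-HSC: Cdk1, the mitotic kinase classically assayed on H1 (1.74, limma adjusted p = 0.00687), and Aurkb, Aurora kinase B (1.73, limma adjusted p = 0.01). Both are also in the G2 and M phase list. Neither was called without LT-HSC replicate 1 or with array weights, and 1 of them was called without ST-HSC replicate 3. The phosphatase gene Ppp1ca (0.22) and the ubiquitin ligase gene Huwe1 (0.18) did not pass (limma adjusted p = 0.759 and 0.76). By limma 0 of 23 genes of histone gene transcription and pre-mRNA processing were called (9 at an unadjusted p under 0.05), with a median of 0.40. That median was 0.25 with quantile normalization, 0.13 with replicate 3 as the only LT-HSC array, and 0.70 with replicate 1 as the only one, where 6 were called. By limma 0 of 22 histone chaperones were called (10 at an unadjusted p under 0.05), with a median of 0.40 and all 22 differences positive. With replicate 3 as the only LT-HSC array the median was 0.11 and 14 of the 22 were positive, and with replicate 1 as the only one it was 0.69 with 4 called. 3 genes of direct bearing on H1 were picked out after their values were seen. Slbp, which encodes the protein that binds the stem-loop of histone mRNAs, differed by 1.01 (SE 0.22, limma adjusted p = 0.0711). Slbp is also in the S phase list. Nasp, which encodes a histone chaperone that binds H1, differed by 0.95 (SE 0.24, limma adjusted p = 0.129), and Npat, a coactivator of histone genes, by 0.50 (SE 0.27, limma adjusted p = 0.529).

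Genes of proteins that share chromatin with H1 or compete for it were not called in the main fit to all 8 arrays. By limma 0 of 14 high mobility group and compaction genes passed in ST-HSC against LT-HSC (3 at an unadjusted p under 0.05), with a median of 0.28. That median was 0.12 with quantile normalization, 0.063 with replicate 3 as the only LT-HSC array, and 0.42 with replicate 1 as the only one, where 5 were called. Hmgb1, the brightest probe set of the list, differed by 0.16 (limma adjusted p = 0.762). By limma 0 of 7 core histone variants passed (3 at an unadjusted p under 0.05), with a median of 0.42, which was 0.25 with replicate 3 as the only LT-HSC array and 0.84 with replicate 1 as the only one, where 2 were called. H2ax, the variant phosphorylated at DNA breaks, differed by 1.09 (limma adjusted p = 0.0553). Of the germline linker histones, H1f6 and H1f7 stayed under the filter at no more than 4.07 on any array, and the oocyte gene H1f8 read 4.39 to 4.62 with differences of -0.13 to 0.076. In the other 2 comparisons the main fit called no member of these lists or of those in the paragraph before. Counts at an unadjusted p under 0.05 follow with the list sizes. In MPP minus LT-HSC they were 4 of 23 transcription and processing genes, 3 of 22 chaperones and 3 of 14 compaction genes. Modifying enzymes gave 2 of 12 and core histone variants 1 of 7, against 10.6% of all tested genes. In MPP minus ST-HSC the same lists gave 2 of 23, 3 of 22, 2 of 14, 3 of 12 and 3 of 7, against 6.89%. H1f8 reached it in neither. With array weights 2 modifying enzymes, 2 chaperones and 1 compaction gene were called lower in MPP than in ST-HSC. With the replicate block 2 modifying enzymes and 1 chaperone were.

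The genes whose profiles were most like each member were sought among 14883 tested genes outside the histones. Likeness was the root mean square difference of gene-centred log2 values over the 8 arrays. For H1f5 they were Cdca5, a cohesin protector known as sororin (0.14), the spindle checkpoint kinase gene Ttk (0.17) and the ubiquitin-conjugating enzyme gene Ube2c (0.18). For H1f1 they were the mitotic phosphatase gene Cdc25c, the kinetochore gene Spc24 and the mitotic kinase gene Pbk, all at 0.22. For H1f3 they were Tubd1, Rcc1 and Ctsg (0.19 to 0.21), which encode delta-tubulin, a chromatin-bound exchange factor for Ran and the granule protease cathepsin G. For H1f10 they were Ndufaf2, Get4 and Asap2 (0.099 to 0.11), and for H1f2 Gprc5a, Map1lc3b and Ahr (0.11 to 0.12). Between members the closest pairs were H1f3 with H1f5 (0.39) and H1f1 with H1f5 (0.42), and the farthest was H1f1 with H1f2 (1.05). Genes that vary little are near each other by this measure, so values of H1f2 and H1f10 cannot be set against those of H1f1.

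The sign of the ST-HSC minus LT-HSC difference held for each of the 5 members in all alternatives tried. In many of them it could not change. The filter, the variance prior, the probe set choice, the fit to the compared groups alone and leaving out an MPP array do not alter this difference. Those alternatives bear only on its adjusted p. Over 20 alternatives the ST-HSC minus LT-HSC difference lay between 2.03 and 2.27 for H1f1 and between 1.36 and 1.89 for H1f5. It lay between 0.64 and 0.94 for H1f10, between 0.45 and 0.99 for H1f3 and between -0.39 and -0.032 for H1f2. The adjusted p ran from 0.000331 to 0.131 for H1f1 and from 0.000567 to 0.119 for H1f5.

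**Figure D4:**
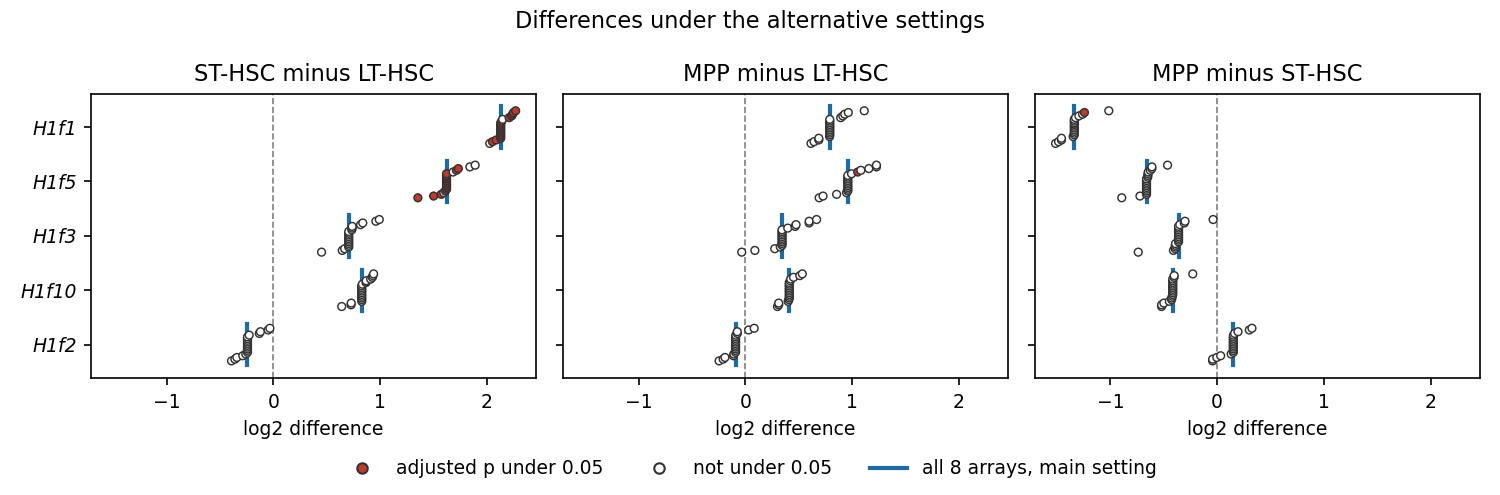
Log2 difference (horizontal axis) of each measured linker histone gene in the 3 comparisons under 20 alternative settings, with 1 point per setting, filled where the adjusted p was under 0.05, and a line at the value from all 8 arrays. In ST-HSC minus LT-HSC the H1f1 points stay between 2.03 and 2.27 whether or not they pass.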

How the data were processed

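Total RNA from 8 sorted samples was amplified with the Ovation Pico WTA System V2, labelled with the Encore Biotin Module and hybridised to 1-colour arrays, per the labels. The deposited values are log2 signals of 33649 probe sets made with RMA, per the submitters' processing notes. No source states the log2 scale, which fits the range of the values, and the RMA version is not given in the sources used here. No raw signals were analysed here, and the number of arrays limits the precision.

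The platform annotation named 23521 probe sets with 1 gene symbol, 1814 with several and 8314 with none here. Probe sets with 1 symbol were used, the one with the highest mean per gene. Genes were tested when that mean was at least 3.88, the 25th percentile over the whole table, and 17576 genes remained. A linear model with a mean per population was fitted to all 8 arrays with limma 3.58.1 in R 4.3.3 (5 residual and 5.93 prior degrees of freedom), and was tested on simulated data. Deviations of ST-HSC and MPP from their group means correlated weakly, at 0.15, 0.23 and 0.21 for replicate numbers 1, 2 and 3. Arrays of unlike number were not compared in this way, so a pairing is not established. The labels do not state a pairing. Promoters came from RefSeq, GRCm38.p6, and 5 of the 5 measured members matched.

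The members, gene lists and tests were chosen with earlier results of these data known. All members are named. From each list up to 6 called genes and the 2 most highly expressed others could be named per comparison, and per member the 3 genes of most like profile. Alternatives covered the filter, scaling, array weights, variance prior, samples in the fit, replicate block, choice of probe set and left-out arrays. Leaving out LT-HSC replicate 1 and ST-HSC replicate 1 together, and the alternatives for the gene lists, were added after seeing the data.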

Additional observations from a re-analysis of the deposited data

How the results depend on the processing

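Of 300 member differences under alternatives, 284 kept their direction and their side of the threshold, 6 lost the call, 4 gained it and 6 turned sign. Many of the alternatives, such as the filter or leaving out an array of a population not compared, could change the adjusted p but not the difference. For ST-HSC minus LT-HSC the 2 called members became 1 with array weights (H1f5, limma adjusted p = 0.0627), 0 to 2 when 1 array was left out, and 0 without LT-HSC replicate 1 and ST-HSC replicate 1 together (H1f1 2.15, H1f5 1.84, limma adjusted p = 0.131 and 0.119). The 2 called by the F test became 1 with quantile normalization and 1 with median centring, 0 to 2 when 1 array was left out and 0 without both arrays. In MPP minus LT-HSC the 0 called stayed 0 when any 1 array was left out, as in MPP minus ST-HSC, where array weights called 1 (H1f1, limma adjusted p = 0.00367).

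The replicate block called 3, 1 and 1 members in ST-HSC minus LT-HSC, MPP minus LT-HSC and MPP minus ST-HSC. It added H1f10 at 0.87 (limma adjusted p = 0.0375), H1f5 at 1.05 (limma adjusted p = 0.0385) and H1f1 as given above. Of the gene lists in ST-HSC minus LT-HSC it called 20 of 23 S phase genes, 7 of 17 core histones and 4 of 22 chaperones. LT-HSC shares 2 numbers with each other population, too few to establish a pairing, with deviations that correlated at 0.54 and 0.47 with ST-HSC and -0.16 and 0.10 with MPP.

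Sign changes were of differences that had not passed. H1f2 in MPP minus LT-HSC became 0.032 with median centring and 0.084 without MPP replicate 1, in a range of -0.25 to 0.084 with 1 array left out. In MPP minus ST-HSC it became -0.043 without ST-HSC replicate 1, with or without LT-HSC replicate 1, and -0.0033 without MPP replicate 2, in a range of -0.043 to 0.33. H1f3 in MPP minus LT-HSC became -0.033 without MPP replicate 1, in a range of -0.033 to 0.67.

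Over all genes, 164, 22 and 34 were called in ST-HSC minus LT-HSC, MPP minus LT-HSC and MPP minus ST-HSC. The first count was 104 with median centring, 61 with array weights, 100 with the 2 groups alone, 473 with the replicate block, 0 without both arrays, and 17 to 825 with 1 array left out. The second was 37 with quantile normalization, 5 with median centring, 9 with array weights, 157 with the replicate block, and 6 to 615 with 1 array left out. The third was 1 with median centring, 525 with array weights, 71 with the 2 groups alone, 267 with the replicate block, 78 without both arrays, and 1 to 71 with 1 array left out. With median centring 0 of that 1 call was higher in MPP, against 12 of 34. The causes were not tested. Centring also shifted the median of all genes by 0.11 in ST-HSC minus LT-HSC. Where LT-HSC is 1 array, it is assumed to vary like the other groups.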
